A study of Mus musculus with 4 samples.

Results

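The integrated stress response genes described here are Atf4, Atf5, Ddit3, Trib3, Asns, Chac1, Ppp1r15a, Sesn2, Psat1 and Phgdh, which encode the transcription factors ATF4, ATF5 and CHOP and genes known as their targets. They were found by symbol in the deposited expression table, and the transcript rows of each gene were summed. All 10 were present, in 14 of 33170 rows, among 23920 genes in all. Liver RNA came from male C57BL/6 mice aged 12 weeks, of the genotypes SREBP1c WT (wild type, 2 libraries) and SREBP1c KO (knockout, 2 libraries). Every mouse had gone without food for 24 h and was then given food again for 12 h. SREBP1c is the insulin-responsive transcription factor of fatty acid synthesis in liver. The sources used here do not say how the KO allele was made, whether SREBP1c was missing in all tissues, or whether each library came from a different animal. The p-values therefore rest on how far these libraries scatter, and that scatter may be technical.

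In the integrated stress response, any of 4 kinases phosphorylates the translation factor eIF2α when amino acids or haem run short, when unfolded protein collects in the endoplasmic reticulum (ER), or on viral infection. General translation then slows, while mRNAs with short upstream reading frames, Atf4 among them, are translated more. ATF4 switches on genes of amino acid supply, redox balance and feedback on the response itself. Much of this control acts on translation, and the RNA levels below do not show it.

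The values are FPKM, fragments per kilobase of transcript and per fixed number of mapped fragments, and so are scaled for transcript length and depth. This scaling does not make levels of different genes strictly comparable, so orders and ratios between genes below are approximate. The steps between low values gave about 22.8, 20.8, 22.7 and 20.7 M (mega) fragments for WT replicates 1 and 2 and KO replicates 1 and 2. Srebf1, the targeted gene, had 63.7 and 58.2 FPKM across the WT libraries, against 8.63 and 6.97 FPKM for KO. The 7 hepatocyte markers found, of 8 listed, summed to between 13663 and 15664 FPKM in every library, most of it Apoa1 (7619 to 8880 FPKM). Cps1, a urea cycle enzyme among them, had 620 and 621 FPKM across the WT libraries, against 362 and 400 FPKM for KO (log2 difference −0.70, limma adjusted p = 0.246). Ass1, also of the urea cycle, overlapped (159 and 122 FPKM for WT, 142 and 137 FPKM for KO). Of the 7, Hnf4a and Cyp2e1 were higher and Cps1 and Apoa1 lower in both KO libraries. Among all genes tested, 22.4% were higher and 16.4% lower in this way. KO replicate 2 stood apart: 8 acute phase and metal response genes summed to 3568 FPKM there and to between 344 and 578 FPKM in the other libraries. The 7 Kupffer cell and macrophage markers summed to 134 FPKM in it and to between 76.5 and 104 FPKM elsewhere, with no marker at 0. The 5 cholangiocyte markers summed to 25.4 and 23.5 FPKM for WT and 50.2 and 41.7 FPKM for KO, of which Spp1 held most (21.3 and 20.2 against 45.5 and 37.0 FPKM, limma adjusted p = 0.136). Of these markers 4 were higher in both KO libraries, against 21.3% of all genes above 0 in some library, and Sox9 overlapped. Krt7 and Epcam, among the 4, were under 1 FPKM in every library and were not tested. None of the 3 tested passed the adjusted threshold. Stellate cell markers summed to between 46.7 and 52.0 FPKM in all libraries. The endothelial sum was 63.9 FPKM in KO replicate 2 and at most 53.2 FPKM elsewhere. The sum of the 4 neutrophil markers found was 24.7 FPKM there and at most 12.1 FPKM elsewhere. That of the 6 T and B cell markers was 2.90 FPKM there and at most 1.68 FPKM elsewhere. All 6 were under 1 FPKM in every library and were not tested. KO replicate 2 was the highest library for 4 of the 6, against 31.6% of all genes tested. It was the lowest for Cd3e, and Ms4a1 was lower in both KO libraries. In bulk liver, a change in the number of cells of a type and a change of RNA per cell cannot be told apart. The part of the acute phase state or of these cell types in the results below was not tested, and differences that rest on KO replicate 2 are also given without it for the members and for Cebpb, Slc38a2, Fgf21, Ddit4 and Herpud1.

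Of the 10 genes, 6 had a higher value in each KO library than in either WT library and none had a lower one. They were Atf4, Atf5, Ddit3, Sesn2, Psat1 and Phgdh, and the ranges of the other 4 overlapped. Among all genes above 0 in some library, 21.3% were higher in both KO libraries in this way and 14.2% were lower. None of the 8 members with a mean of at least 1 FPKM passed limma's moderated test on log2(FPKM + 1) at a Benjamini-Hochberg adjusted p of 0.05, a threshold that 0.0713% of the 9820 genes tested passed. At an unadjusted p under 0.05, Atf5 and Ddit3 were higher in KO and no member was lower, against 4.5% of all genes higher and 3.25% lower. The median difference over the 10 genes, KO minus WT, was 0.27 on the log2(FPKM + 1) scale, and that over all genes tested was 0.02. Set against the mean of the WT libraries, the members' median came to 0.17 for KO replicate 1 and 0.49 for KO replicate 2.

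**Figure D1:**
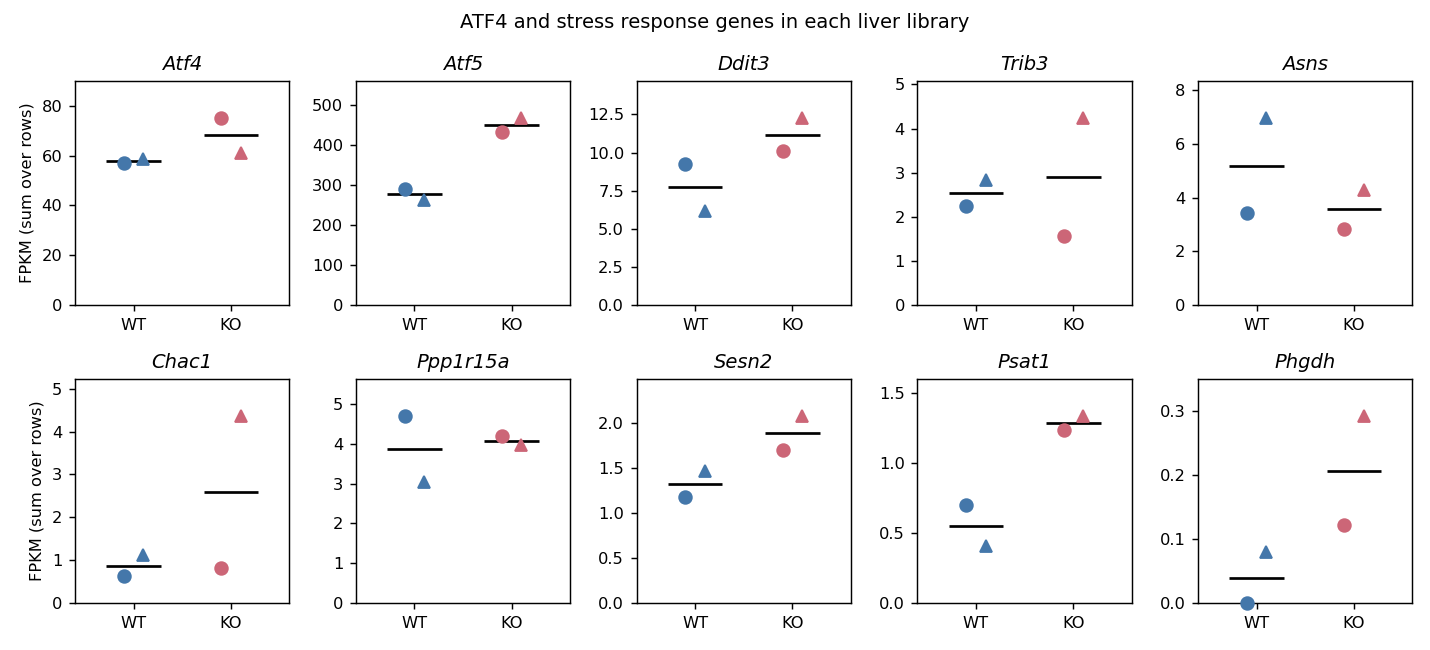
FPKM of each gene (rows summed) in the WT (blue) and KO (red) libraries. Circles are replicate 1, triangles replicate 2 and lines the group means (n = 2 each), and each panel has its own axis from 0. The WT and KO libraries of Atf5 and of Psat1 do not overlap, while KO replicate 2 alone is high for Chac1 at 4.36 FPKM.

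Levels spanned a wide range. In WT the order by mean ran from Atf5 and Atf4 through Ddit3, Asns, Ppp1r15a, Trib3, Sesn2, Chac1 and Psat1 to Phgdh. The WT ranges of Ddit3 and Asns overlapped, as did those of Asns and Ppp1r15a and of Chac1 and Psat1, so these neighbours were not separated. Atf5 and Atf4 also led in KO, and Phgdh was the lowest in both groups.

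Atf4, on chromosome 15 (80255184 to 80257545, mm10), encodes the central transcription factor of the response. It had 56.9 and 58.6 FPKM across the WT libraries, against 74.9 and 61.2 FPKM for KO. The groups did not overlap, but KO replicate 2 lay only just above WT. The means were 57.8 ± 1.20 and 68.0 ± 9.70 FPKM (SD, n = 2 each), and the log2 difference was 0.23 with a 95% interval from −0.10 to 0.55 (limma adjusted p = 0.732). The gene has 2 rows of similar size. The row NM_001287180 had 29.6 and 31.4 FPKM across the WT libraries, against 43.8 and 34.7 FPKM for KO. The row NM_009716 had 27.3 and 27.2 FPKM across the WT libraries, against 31.2 and 26.5 FPKM for KO, so that the separation lay in the former row. The sources used here do not give how fragments were shared between the rows. Leaving out KO replicate 2 gave a difference of the sum of 0.37, and leaving out KO replicate 1 gave 0.08.

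Atf5, on chromosome 7 (44812256 to 44816658, minus strand), encodes a related bZIP factor whose translation is also controlled by upstream reading frames and which is abundant in liver. It had 290 and 263 FPKM across the WT libraries, against 432 and 466 FPKM for KO. All KO values lay well above all WT values, and the libraries of each group were close to each other. The means were 276 ± 18.5 and 449 ± 24.1 FPKM (SD, n = 2 each), a 1.62-fold higher KO mean. The log2 difference was 0.70 with a 95% interval from 0.38 to 1.01, which did not pass over all genes (limma adjusted p = 0.246, unadjusted p = 0.00168, rank 66 of 9820). Atf5 was the member with the smallest p in this test.

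The size of the Atf5 difference hardly moved when a library was left out, between 0.63 and 0.76. Its limma adjusted p did move: 0.0102 without KO replicate 1, 0.0332 without KO replicate 2, 0.999 without WT replicate 1 and 0.951 without WT replicate 2. Such fits assume that the lone library of a group varies like the other group. Without KO replicate 1, 3.63% of all genes passed, and without KO replicate 2, 1.41% did, against 0.0102% without WT replicate 1 and 0.0406% without WT replicate 2. The Atf5 level exceeded the Atf4 level 5.09-fold and 4.49-fold in the WT libraries and 5.76-fold and 7.61-fold in the KO libraries.

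Nearly all of the Atf5 value (99.8%) stood in the row NR_033136, which RefSeq holds as a non-coding record. It had 289 and 263 FPKM across the WT libraries, against 431 and 465 FPKM for KO. The coding record NM_030693 had 0.53 and 0.71 FPKM across the WT libraries, against 0.41 and 0.82 FPKM for KO, with overlapping groups. The GENCODE M21 transcript paired with NR_033136 is annotated as protein-coding, with the same 849 coding bases in 2 exons as the transcript paired with NM_030693. Both records thus hold the same reading frame in that annotation, and they differ in where they start. NR_033136 starts at 44816658 and NM_030693 at 44815658. The 60 bases before each start are shown because the start is where the records differ (RefSeq, GRCm38.p6, minus strand, 5′ to 3′, no motif marked). The paired transcripts, of 1816 and 1735 bases, share their coding exons, and the sources used here do not give how fragments were split between the rows, so the row shares do not measure the use of either start.
Atf5 upstream start, chr7:44816659-44816718: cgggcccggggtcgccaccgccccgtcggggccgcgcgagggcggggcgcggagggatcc
Atf5 downstream start, chr7:44815659-44815718: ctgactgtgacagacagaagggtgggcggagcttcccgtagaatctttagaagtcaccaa

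The upstream end of Atf5 overlaps Nup62, a nuclear pore gene on the plus strand, over 571 bases, counted over whole gene spans and not exons. Il4i1b, at most 0.27 FPKM in any library, overlaps the same end by 289 bases. The sources used here do not give whether counting used strand, so fragments of these overlaps cannot be assigned with certainty. Nup62 itself had 6.32 and 4.35 FPKM across the WT libraries, against 6.05 and 6.68 FPKM for KO, far under the Atf5 level in every library.

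Ddit3, on chromosome 10 (127290793 to 127296291), encodes CHOP, a bZIP factor that ATF4 induces and that promotes cell death under lasting ER stress. It had 9.27 and 6.19 FPKM across the WT libraries, against 10.1 and 12.2 FPKM for KO. The KO libraries were higher, but WT replicate 1 came near KO replicate 1. The means were 7.73 ± 2.18 and 11.2 ± 1.53 FPKM (SD, n = 2 each), with a log2 difference of 0.49, a 95% interval from 0.02 to 0.97 and limma adjusted p = 0.627. Leaving out WT replicate 2 gave 0.24, and leaving out WT replicate 1 gave 0.75. Ddit3 overlaps Mbd6 by 77 bases and Mars1, a tRNA synthetase gene, by 71 bases at its ends, counted over whole gene spans. Mars1 had 25.3 and 24.5 FPKM across the WT libraries, against 24.6 and 25.7 FPKM for KO, above Ddit3 in every library. Mbd6 had at most 5.13 FPKM, under Ddit3 in every library. As for Atf5, whether counting used strand is not given, so fragments of these overlaps cannot be assigned with certainty.

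**Figure D2:**
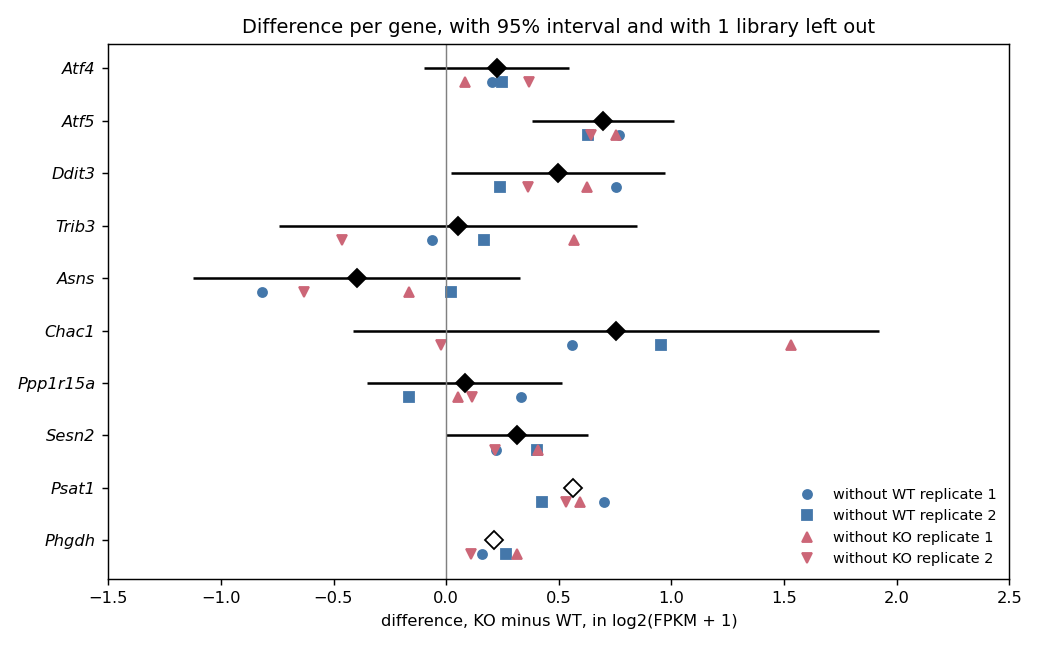
Difference between KO and WT means of log2(FPKM + 1) for each gene (diamonds) with limma's 95% interval (lines). Open diamonds are genes under 1 FPKM on average, which have no interval. Small symbols below give the difference with 1 library left out. Atf5 stays between 0.63 and 0.76, while Chac1 runs from −0.023 to 1.53.

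Feedback on the response is provided by Ppp1r15a and Trib3. Ppp1r15a (chromosome 7, 45522917 to 45526268) encodes GADD34, which brings a phosphatase to eIF2α and ends the response. It overlaps Tulp2, on the other strand and under 0.1 FPKM in every library, by 730 bases. Ppp1r15a had 4.70 and 3.04 FPKM across the WT libraries, against 4.19 and 3.97 FPKM for KO. Both KO values lay between the WT values. The log2 difference was 0.08 with a 95% interval from −0.35 to 0.52 (limma adjusted p = 0.934). Trib3 (chromosome 2, 152337425 to 152344060) encodes a pseudokinase that binds ATF4 and CHOP and, in liver, the kinase AKT. It had 2.25 and 2.83 FPKM across the WT libraries, against 1.56 and 4.23 FPKM for KO. The KO libraries were the lowest and the highest of all, on either side of WT. The log2 difference of 0.05 had an interval from −0.74 to 0.85 (limma adjusted p = 0.983) and was −0.46 without KO replicate 2.

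Chac1 (chromosome 2, 119351242 to 119354326) encodes an enzyme that degrades glutathione and is one of the most responsive targets of ATF4. It had 0.62 and 1.13 FPKM across the WT libraries, against 0.82 and 4.36 FPKM for KO. These correspond to about 23, 38, 31 and 148 fragments. KO replicate 1 lay within the WT range, and KO replicate 2 was 5.29-fold above KO replicate 1. The log2 difference was 0.75 with an interval from −0.41 to 1.92 (limma adjusted p = 0.747). It was 1.53 without KO replicate 1 (limma adjusted p = 0.00331, where 3.63% of genes passed) and −0.023 without KO replicate 2, where Chac1 fell short of 1 FPKM and was not tested. Chac1 thus exceeded the WT range in 1 of 2 KO libraries.

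Sesn2 (chromosome 4, 132492804 to 132510456) encodes sestrin 2, a sensor of leucine that restrains the growth kinase mTORC1. It had 1.18 and 1.47 FPKM across the WT libraries, against 1.69 and 2.07 FPKM for KO, about 93, 106, 134 and 149 fragments. Both KO libraries were above both WT libraries. The means were 1.32 ± 0.207 and 1.88 ± 0.270 FPKM (SD, n = 2 each), with a log2 difference of 0.31, an interval from −0.00255 to 0.63 and limma adjusted p = 0.644.

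Among the enzymes of amino acid synthesis, Asns had a lower KO mean with overlapping groups, and Psat1 and Phgdh had higher KO means. None of these differences passed limma's adjusted threshold. Asns (chromosome 6, 7675165 to 7693209), asparagine synthetase and a classic ATF4 target, had 3.44 and 6.95 FPKM across the WT libraries, against 2.84 and 4.30 FPKM for KO. WT replicate 2 was the highest library, and WT replicate 1 lay between the KO libraries. Asns was the only member with a lower KO mean, by 0.40 on the log2 scale (95% interval from −1.12 to 0.33, limma adjusted p = 0.786), and the difference was 0.022 without WT replicate 2.

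Psat1 and Phgdh work in serine synthesis. Psat1 (chromosome 19, 15905123 to 15925059), phosphoserine aminotransferase, had 0.70 and 0.40 FPKM across the WT libraries, against 1.24 and 1.33 FPKM for KO. These correspond to about 42, 22, 73 and 72 fragments. The KO libraries were close to each other and both above WT. The means were 0.552 ± 0.208 and 1.28 ± 0.0684 FPKM (SD, n = 2 each), a 2.33-fold higher KO mean. Psat1 lay under the minimum of 1 FPKM and was tested only without that minimum (log2 difference 0.56, limma unadjusted p = 0.00841, adjusted p = 0.566). Almost all of it stood in the row NM_177420. Phgdh (chromosome 3, 98313171 to 98339969), which starts the pathway, was listed at 0 and 0.08 FPKM across the WT libraries, against 0.12 and 0.29 FPKM for KO. The steps gave 0, 3, 5 and 11 fragments, too few for a fold. Serine synthesis is known to be low in liver on a normal diet.

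The sequence known to bind ATF4 with a C/EBP partner was searched in the 250 bases before each annotated start, as TGATGNAA and TGNTGCAA on both strands. The palindrome TGACGTCA, bound by ATF and CREB factors, was searched as well. RefSeq held 12 such windows for the 10 genes. TGATGNAA was in 2 of them and in 3.45% of all 32851 windows, TGNTGCAA in 4 and in 2.72%, and TGACGTCA in 1 and in 1.55%. The matches are shown to give the letters found in each gene's window (RefSeq, GRCm38.p6, gene strand, 5′ to 3′, match in capitals). The motifs overlap, and the Chac1 match fits both of the first 2 forms on the opposite strand.
Chac1, chr2:119351038-119351067: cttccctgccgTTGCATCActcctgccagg
Asns, chr6:7693214-7693243: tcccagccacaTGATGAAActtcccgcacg
Trib3, chr2:152344075-152344104: cgggtcacagaTGGTGCAAtcccgggccgc
Psat1, chr19:15925177-15925206: acgcgggtggcTGGTGCAAtcccctgctct
Sesn2, chr4:132510656-132510685: catgcaaaagtTTGCAGCAtctgtgcgagg
Ppp1r15a, chr7:45526269-45526298: gagaccccgcctctccggTGACGTCAgcac

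The matches began 193, 23, 33, 136, 218 and 12 bases before the start in that order. Of the 5 targets with a TGATGNAA or TGNTGCAA match, Psat1 and Sesn2 were above both WT libraries in each KO library, and Chac1, Asns and Trib3 overlapped. Of the 5 members without such a match, Atf4, Atf5, Ddit3 and Phgdh were above both WT libraries in each KO library and Ppp1r15a overlapped, against 21.3% of all genes. Trib3 and Psat1 hold the same 8 letters, yet Psat1 was near equal in the KO libraries and Trib3 differed 2.72-fold between them. Chac1 had a higher and Asns a lower mean in KO. A match is a description of letters, and no binding was measured here.

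Other genes of the pathway were read from 8 lists, and none of their 90 tested genes passed limma's adjusted threshold. At an unadjusted p under 0.05, 7 of the 90 were higher and 1 was lower in KO, against 4.5% and 3.25% of all genes tested. Of 7 genes for eIF2α kinases and their partners, 1 was higher and 2 were lower in both KO libraries. Among the genes tested, 22.4% were higher in both KO libraries and 16.4% were lower in both. Eif2ak3, which encodes the ER kinase PERK, had 5.68 and 5.13 FPKM across the WT libraries, against 4.35 and 4.88 FPKM for KO (limma adjusted p = 0.733). Eif2ak4, which encodes GCN2, the sensor of uncharged tRNA, had 2.01 and 1.76 FPKM across the WT libraries, against 1.56 FPKM in each KO library (limma adjusted p = 0.752). Dnajc3, a co-chaperone that inhibits PERK, had 74.3 and 72.8 FPKM across the WT libraries, against 75.5 and 99.1 FPKM for KO (limma adjusted p = 0.759). Of 12 genes for eIF2, eIF2B and their phosphatases, 10 overlapped between the groups. Eif2a, an initiation factor distinct from eIF2α, had 16.1 and 16.6 FPKM across the WT libraries, against 14.3 and 13.4 FPKM for KO, and its limma adjusted p was 0.649. Eif2b3 and Eif2s2 overlapped, with limma adjusted p = 0.731 and 0.852.

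Of 11 possible bZIP partners of ATF4, 7 reached 1 FPKM on average and were tested, and Cebpb and Nfe2l1 had the smallest p among these. Jdp2, below that minimum, had the smallest p of the 11 without it (0.59 and 0.52 FPKM across the WT libraries, against 0.87 and 1.13 FPKM for KO, limma adjusted p = 0.587). Cebpb, which encodes C/EBPβ, had 45.9 and 53.5 FPKM across the WT libraries, against 72.0 and 128 FPKM for KO (limma adjusted p = 0.484). It was highest in KO replicate 2, the library with high acute phase genes, and its log2 difference was 0.94 with that library and 0.53 without it (limma adjusted p = 0.135). Nfe2l1 had 16.3 and 17.8 FPKM across the WT libraries, against 21.0 and 31.1 FPKM for KO (limma adjusted p = 0.57), and Nfe2l2, which encodes NRF2, overlapped (limma adjusted p = 0.734).

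Of 15 other stress and growth targets, 12 were tested and their differences ran from −0.91 to 1.15 on the log2 scale. Gdf15, a secreted stress hormone, had 3.96 and 4.15 FPKM across the WT libraries, against 6.95 and 7.38 FPKM for KO (log2 difference 0.69, limma adjusted p = 0.165). The values within each group were close, as they were for Atf5. Bbc3, which encodes the cell death protein PUMA, went the other way, with 4.88 and 6.21 FPKM across the WT libraries, against 2.33 and 2.60 FPKM for KO (log2 difference −0.91, limma adjusted p = 0.165). Ndrg1 had 6.79 and 5.48 FPKM across the WT libraries, against 12.2 and 7.68 FPKM for KO (limma adjusted p = 0.599).

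**Figure D3:**
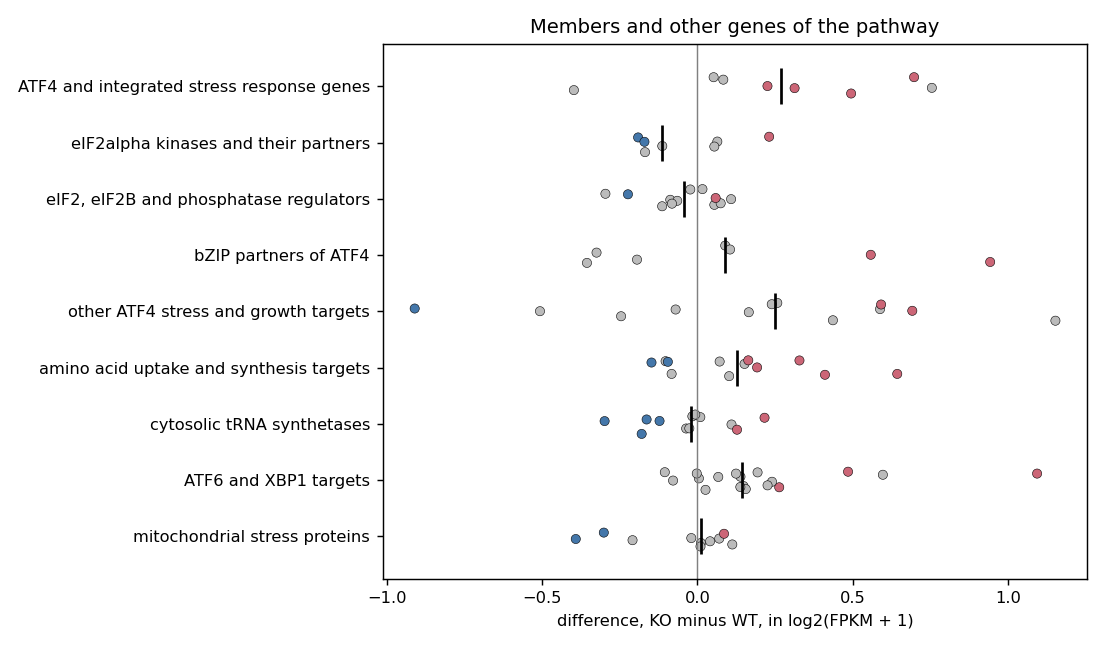
Difference between KO and WT means of log2(FPKM + 1) for every gene of each list with a mean of at least 1 FPKM. Red points are higher in both KO libraries, blue points lower in both and grey points overlap, with the list median as a black line. No point passed the adjusted test, and the lists lie on both sides of 0, from −0.91 for Bbc3 to 1.15 for Fgf21.

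Of 19 further genes of amino acid uptake and synthesis, 6 were higher and 2 lower in both KO libraries, against 21.3% and 14.2% of all genes above 0 in some library. Mthfd2, a mitochondrial folate enzyme, had 1.30 and 0.97 FPKM across the WT libraries, against 1.78 and 1.88 FPKM for KO (limma adjusted p = 0.514). Slc38a2, an amino acid transporter, had 11.4 and 13.3 FPKM across the WT libraries, against 14.3 and 27.3 FPKM for KO (log2 difference 0.64, limma adjusted p = 0.644), with a log2 difference of 0.20 without KO replicate 2 (limma adjusted p = 0.749). The serine and alanine transporter gene Slc1a4 had limma adjusted p = 0.698. The 12 cytosolic tRNA synthetase genes, many of them ATF4 targets, had a median difference of −0.02. Tars had 89.0 and 76.1 FPKM across the WT libraries, against 68.6 and 65.0 FPKM for KO (limma adjusted p = 0.644). Gars was lower and Wars higher in both KO libraries, with limma adjusted p = 0.733 and 0.747.

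The ATF6 and XBP1 arms of the ER stress response were set beside the members for comparison. Of their 18 genes, all tested, 3 were higher and none was lower in both KO libraries, against 22.4% and 16.4% of all genes tested. Derl3, which acts in the removal of misfolded ER proteins, had 9.07 and 11.1 FPKM across the WT libraries, against 21.2 and 23.9 FPKM for KO (limma adjusted p = 0.112). Sdf2l1 and Xbp1 were the other 2 (limma adjusted p = 0.625 and 0.659). Of the 10 mitochondrial stress genes, all tested, 1 was higher and 2 were lower in both KO libraries, against the same 22.4% and 16.4%. The higher gene was Dele1, with 15.1 and 15.5 FPKM across the WT libraries, against 15.8 and 16.9 FPKM for KO (limma adjusted p = 0.875). Hspd1 had 477 and 383 FPKM across the WT libraries, against 360 and 295 FPKM for KO (limma adjusted p = 0.644). Hspa9 was also lower in both KO libraries (limma adjusted p = 0.644), and Oma1, a protease that relays mitochondrial stress to eIF2α, overlapped (limma adjusted p = 0.861).

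KO replicate 2 was the highest of the 4 libraries for 7 of the 10 members, against 31.6% of all genes tested. These were Atf5, Ddit3, Trib3, Chac1, Sesn2, Psat1 and Phgdh. Of them, Psat1 and Phgdh had means under 1 FPKM over the 4 libraries and so stood outside the genes tested. KO replicate 2 was also the highest for 15 of the 18 ATF6 and XBP1 genes and for 8 of the 8 acute phase and metal response genes. KO replicate 1 was the highest for 1 member, Atf4, against 26.7% of all genes tested. Of the 7 members highest in KO replicate 2, Trib3 and Chac1 were not above both WT libraries in KO replicate 1, and the other 5 were.

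**Figure D4:**
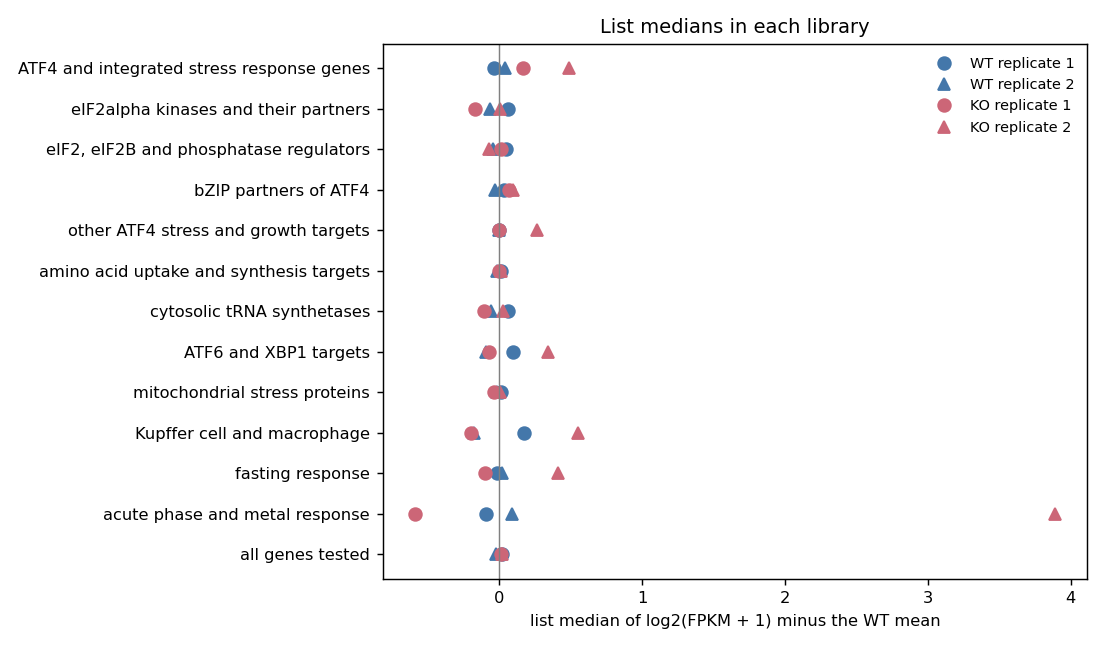
Median over each list of log2(FPKM + 1) minus the WT mean, in each library (blue WT, red KO, circles replicate 1, triangles replicate 2). The members lie at 0.17 and 0.49 in the KO libraries. The acute phase list is far from the others in KO replicate 2 at 3.89, and all genes tested lie near 0.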

How the data were processed

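One table held FPKM per RefSeq transcript in 4 liver libraries, made by the authors, per the file headers. The submitters' processing notes name Bowtie, TopHat and the mm10 build with no version. Which program made FPKM, from which annotation and with or without strand, is not given in the sources used here. Rows were summed per gene. Sums were compared on log2(FPKM + 1) with limma 3.58.1 (R 4.3.3; moderated test, intensity trend, Benjamini-Hochberg adjustment over 9820 genes with a mean of at least 1 FPKM, threshold 0.05). A difference on this scale understates low genes. Exact permutation of 2 against 2 libraries gives a two-sided p of 0.333 at best and was not used. Depth came from steps of low values with GENCODE M21 lengths. Between 49.2% and 52.5% of low values came within 0.1 of a whole number of fragments, so fragment numbers are approximate and no count test was run. RefSeq tables of GRCm38.p6, the assembly of mm10, gave coordinates and promoter windows. In 5 simulated sets of the 9820 genes with independent normal noise, 81.6% of genes changed by 1 log2 unit and 96.8% changed by 2 units were called. Of these calls 5.12% were false. Each set held many more changed genes than the 7 that passed here, some changed by up to 5 log2 units. Such sets ease the adjusted threshold, so the shares do not measure how well the test finds changes in these data. The members and lists were chosen with earlier results of these data known. The text names all members, Srebf1 and up to 3 genes of each list with the smallest p. It also names some markers, overlapping genes, Jdp2, Dele1 and the genes chosen after their values were seen. Alternatives changed the pseudocount, filter, scaling, variance prior, block, row choice, threshold or libraries. Python 3.11.15 with pandas 2.3.3 and matplotlib 3.10.9 made tables and figures.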

Additional observations from a re-analysis of the deposited data

How the results depend on the processing

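The number of genes passing over all genes was 7 with the settings of the report. It was 11 with a pseudocount of 0.1, 3 with a minimum of 5 FPKM, 15 with a robust prior, 4 with the highest row of each gene and 0 without a filter, where 1233 genes had an unadjusted limma p under 0.05. The cause was not tested. It ran from 1 to 357 with 1 library left out. No member passed under any setting with all 4 libraries, and with 1 library left out the number of members passing ran from 0 to 2. The members' median difference was 0.51 with a pseudocount of 0.1, which weighs low genes more, and ran from 0.17 to 0.49 with 1 library left out. Atf4, Atf5, Ddit3, Sesn2, Psat1 and Phgdh had a positive difference in each of the 14 alternatives. The others turned with a library left out: Trib3 to −0.07 without WT replicate 1 and −0.46 without KO replicate 2 (range −0.46 to 0.57), Asns to 0.022 without WT replicate 2 (−0.82 to 0.022), Ppp1r15a to −0.16 without WT replicate 2 (−0.16 to 0.33) and Chac1 to −0.023 without KO replicate 2 (−0.023 to 1.53). No scaling turned a member. Of Cebpb, Slc38a2, Fgf21, Ddit4 and Herpud1, tried without KO replicate 2 after the data were seen, Herpud1 turned, from 0.44 to −0.17.

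With the replicate number as a block, 19 genes passed, none of them a member. Libraries of equal number deviated together only weakly (correlation over genes 0.17, for 2 pairs), and the labels do not say that a number marks a shared batch. Phgdh, with 0 to 11 fragments a library, and Psat1, with 22 to 73, rested on few fragments.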

Other observations

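A few further targets were high in KO replicate 2 alone, and they were chosen after their values were seen. Fgf21, a fasting hormone, had 1.06 and 0.29 FPKM across the WT libraries, against 0.96 and 5.71 FPKM for KO (limma adjusted p = 0.681), and its log2 difference was 1.15 with KO replicate 2 and 0.26 without it, where it was not tested. Ddit4, which restrains mTORC1, had 2.80 and 5.77 FPKM across the WT libraries, against 4.08 and 10.4 FPKM for KO (limma adjusted p = 0.781), with log2 differences of 0.59 and, without KO replicate 2, 0.0037 (limma adjusted p = 0.998). Herpud1, an ER stress gene, had 114 and 136 FPKM across the WT libraries, against 110 and 257 FPKM for KO (limma adjusted p = 0.82), with log2 differences of 0.44 and, without KO replicate 2, −0.17 (limma adjusted p = 0.765). For each of them KO replicate 1 lay within the WT range or just under it, as it did for Chac1. The fasting response genes, chosen as a marker of nutritional state, summed to 2079 FPKM in KO replicate 2 and to between 1199 and 1373 FPKM in the other libraries, and their part in these values was not tested.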
